A study of Mus musculus with 12 samples.

Results

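The complement genes described here are 9 transcripts of the complement system, taken by name from the 25749 genes measured in brain tissue: C1qa, C1qb, C1qc, C2, C4b, C3, Serping1, C3ar1 and C5ar1. All 9 were found in each of the 12 libraries and all 9 passed the filter on low counts, as did 14771 genes in all. The tissue came from 12 different male B6 mice aged 13 weeks in 3 groups of 4, namely uninjured controls, animals with an injury of brain vessels, and injured animals that also received αLFA1/VLA4 continuously. αLFA1/VLA4 stands for antibodies against LFA1 and VLA4, integrins that blood leukocytes use to adhere to vessel walls and enter tissue. Perfusion with saline and removal of a cube with edges of 3 mm took place 20 days after injury, and the same protocol is given for every group. A control antibody or sham operation for the other groups is not named in the labels, and each sample is described as a separate mouse.

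Complement is a cascade of proteins that marks cells and debris for removal. C1q recognises a target, the proteases C1r and C1s bound to it cleave C4 and C2, and their products form an enzyme that cleaves C3. Fragments of C3 coat the target and are read by receptors on phagocytes, while the small fragments C3a and C5a signal through C3ar1 and C5ar1. In the brain, microglia are the main source of C1q, reactive astrocytes are known to make C3 and C4, and complement takes part in the removal of synapses and debris.

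Exon reads per library numbered 15159988 to 15781229 in the uninjured, 15507462 to 16121577 in the injured and 13330379 to 13917157 in antibody-treated mice. The defining transcripts of neurons, oligodendrocytes and astrocytes were present in every library, with summed levels of 4103 to 5435, 2957 to 3390 and 1379 to 2018 TPM (a level scaled to the library total and corrected for transcript length). On the first principal component, which held 38.3% of the variance, the ends were uninjured replicate 1 and antibody-treated replicate 4. Summed markers of other tissues were higher in the antibody-treated libraries, with skeletal muscle at 132 to 186 TPM against 13.5 to 25.2 in the other groups, bone at 51.6 to 63.2 against 11.9 to 26.7, and fibroblasts and meninges at 193 to 242 against 49.6 to 77.2. Col1a1 is a marker in both the bone list and the fibroblast and meninges list, so those sums are not separate. Markers of liver, the main source of complement in blood plasma, summed to 0.201 to 1.33 TPM over the 12 libraries.

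Of the 9 complement genes, 6 rose in injured against uninjured mice, 8 rose in antibody-treated against uninjured mice, and 3 rose in antibody-treated against injured mice, while none fell in any comparison. The last count was 7 with a trend on GC content and length removed from each library and 5 without antibody-treated replicate 3. Genes that rose made up 11.9%, 6.3% and 10.9% of all 14771 tested in the same order, and genes that fell made up 11.0%, 3.22% and 10.7%. The median log2 fold change of the 9 genes was 0.69, 1.02 and 0.26 in the same order, against 0.03, 0.01 and 0.01 over all tested genes. Each pair of comparisons shares a group of libraries, so their results are not separate pieces of evidence. In these bulk samples more cells of a type and more RNA per cell cannot be told apart.

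**Figure D1:**
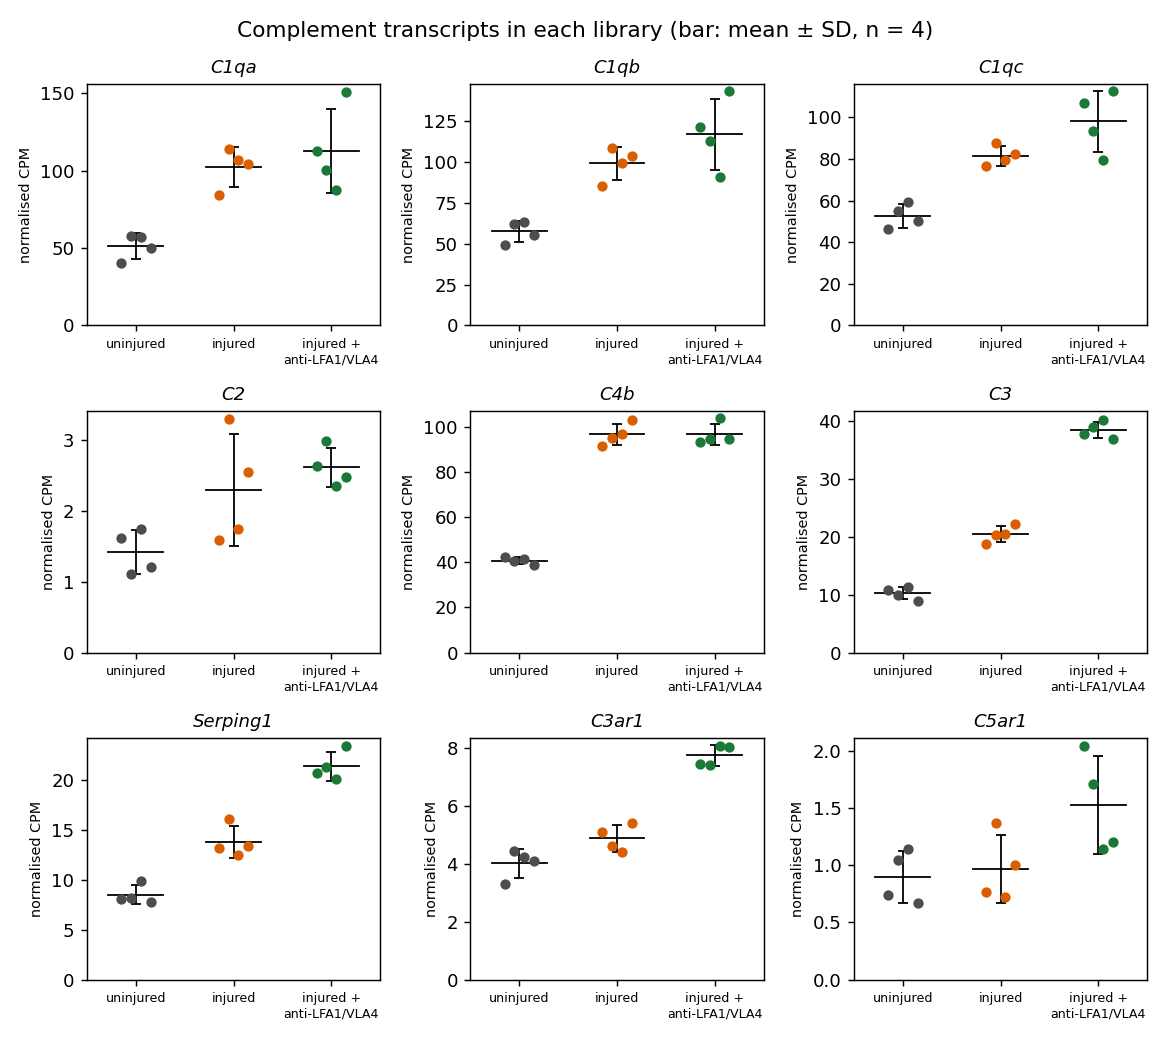
Normalised CPM (exon counts scaled to the effective library size) of the 9 complement genes, 1 panel a gene with its own axis from 0; each point is 1 mouse, and the bar with whiskers is the mean ± SD of 4. C4b is as high in injured as in antibody-treated mice (means 96.6 and 96.6), whereas C3 steps up in each group, from 10.3 to 20.5 to 38.5.

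**Figure D2:**
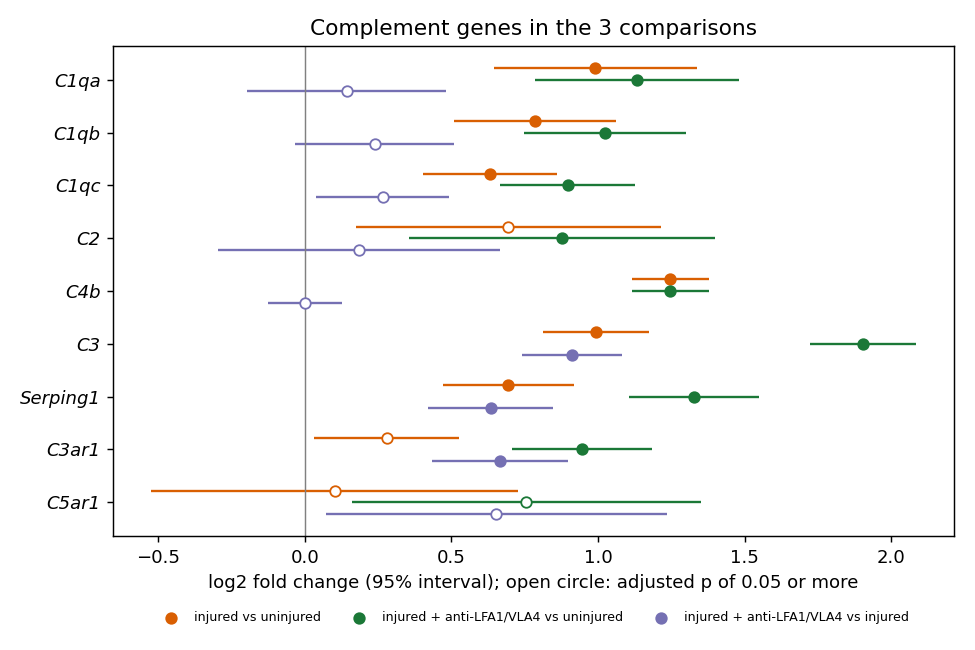
Log2 fold change of each complement gene with its 95% interval in the 3 comparisons; filled circles passed an adjusted p of 0.05 in edgeR's quasi-likelihood test. C3, Serping1 and C3ar1 are the genes with filled circles for antibody-treated against injured mice.

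The transcripts of C1q, the recognition molecule, rose 1.55- to 1.99-fold after injury, and none passed the test between the injured groups. C1qa, C1qb and C1qc encode the chains of C1q and lie side by side on the minus strand of chromosome 4 (GRCm38), C1qb at 136880129-136886187, C1qc at 136889804-136893065 and C1qa at 136895917-136898803, each with 3 exons. C1qa measured 40.3, 57.9, 57.3 and 50.1 CPM in the uninjured libraries, 84.0, 114, 107 and 104 in the injured libraries, and 113, 100.4, 87.8 and 151 in the antibody-treated libraries. Every injured library of both kinds lay above all uninjured libraries, and the antibody-treated range covered all injured values but the lowest. C1qb measured 49.5, 62.2, 63.4 and 55.4 CPM in the uninjured, 85.3, 109, 99.4 and 104 in the injured, and 121, 113, 90.7 and 143 in the antibody-treated mice. C1qc measured 46.5, 54.9, 59.4 and 50.1 CPM in the uninjured, 76.7, 87.9, 79.6 and 82.4 in the injured, and 107, 93.3, 79.6 and 113 in the antibody-treated mice. For both genes the lowest antibody-treated library was replicate 3, which fell among the injured values.

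In injured against uninjured mice the log2 fold change was 0.99 for C1qa (SE 0.16, adjusted p = 0.00263, edgeR), 0.79 for C1qb (SE 0.13, adjusted p = 0.00263) and 0.63 for C1qc (SE 0.11, adjusted p = 0.00319). Against uninjured mice the antibody-treated group was higher by 1.13 for C1qa, 1.02 for C1qb and 0.90 for C1qc, with edgeR adjusted p-values of 5.42e-04, 1.87e-04 and 1.23e-04. Between antibody-treated and injured mice the differences were 0.14 for C1qa (95% interval -0.20 to 0.48), 0.24 for C1qb (-0.03 to 0.51) and 0.26 for C1qc (0.04 to 0.49), and none passed adjustment over all genes (edgeR adjusted p = 0.554, 0.192 and 0.0870). Without antibody-treated replicate 3, C1qb and C1qc passed this last comparison at 0.36 and 0.37. C1q transcripts are short and rich in G and C. The exons of a C1q gene span 1040 to 1203 bases in all, against a median of 3521 over the tested genes. The GC content of the longest transcript is 57.4% to 59.5%, against a median of 49.8%. With a trend on GC content and length removed from each library, the log2 fold changes after injury were 0.61, 0.44 and 0.28, and those of antibody-treated against uninjured mice were 0.79, 0.67 and 0.58, all still past the threshold. With the trend removed all of them also passed between antibody-treated and injured mice, at 0.18, 0.23 and 0.30 (edgeR adjusted p = 0.0318, 9.72e-04 and 6.76e-04).

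The C1q genes sit in 1 cluster and rose in the same comparisons, so the sequence before the start of C1qb and C1qc is shown, from the RefSeq promoter table (GRCm38.p6, minus strand, 5′ to 3′). The C1qb stretch is chr4:136886201-136886450, and the C1qc stretch is chr4:136893066-136893164, which ends where the annotated gene begins. Capitals mark the core GAGGAA bound by PU.1, a transcription factor of the myeloid lineage, which in C1qc reads TTCCTC because it lies on the opposite strand.
C1qb: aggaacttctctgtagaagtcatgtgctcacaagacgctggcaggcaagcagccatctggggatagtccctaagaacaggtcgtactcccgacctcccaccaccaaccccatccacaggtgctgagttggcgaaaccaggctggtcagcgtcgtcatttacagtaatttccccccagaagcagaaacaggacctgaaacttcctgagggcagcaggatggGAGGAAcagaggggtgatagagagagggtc
C1qc: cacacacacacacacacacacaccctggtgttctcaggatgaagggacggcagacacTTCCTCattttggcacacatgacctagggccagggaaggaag
The match lies at bases -30 to -25 from the RefSeq start of C1qb and at -193 to -188 from the RefSeq start of C1qc. The RefSeq start of C1qc lies inside the annotated gene, and the C1qc stretch shown covers -250 to -152 from it. A promoter window of 250 bases before and 50 after the start was available for 5 of the 9 genes, and GAGGAA on either strand occurred in 2 of them. The same letters occurred in 28.3% of 32851 mouse windows of that length, so a match is a description of the sequence and not a binding site. The other motifs searched on both strands were GAAANNGAA (interferon response, in C5ar1, 8.56% of windows), TTCNNNGAA (STAT, in none of the 5, 8.30%), GGANTTTCC (NF-kB, in none of the 5, 1.25%) and TTGCNNAA (C/EBP, in C3, 10.8%). The match in C5ar1 lies at -66 to -58 from its RefSeq start, inside the annotated gene. Only bases -250 to -203 of the C5ar1 window lie before that gene.

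The proportions of the C1q transcripts differed slightly between the groups. C1qa made up 33.7% ± 1.54 (SD, n = 4) of the summed C1q TPM in the uninjured, 38.1% ± 1.39 in the injured and 36.2% ± 2.01 in antibody-treated mice. C1qc made up 30.0% ± 1.15, 26.5% ± 1.44 and 27.6% ± 1.57 in the same order. C1qb stayed within 35.1% to 37.4% in every library. The summed level was 349 ± 37.0, 689 ± 68.8 and 712 ± 99.2 TPM. These shares are a description without a test. C1qa is the shortest and most GC-rich of the C1q genes, and the part of length and GC content in its share was not tested.

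C4b, the substrate of the C1 proteases, had the smallest adjusted p of the 9 after injury, and its mean level was nearly equal with and without the antibodies. C4b lies on the minus strand of chromosome 17 at 34728380-34743882 with 44 exons. It measured 42.2, 40.3, 41.6 and 38.6 CPM in the uninjured, 91.6, 94.9, 96.7 and 103 in the injured, and 93.3, 94.6, 103.8 and 94.6 in the antibody-treated mice. The uninjured libraries stood apart from all others, and the injured and antibody-treated libraries covered the same range. The log2 fold change was 1.25 (SE 0.06) in both injured groups against uninjured mice, with edgeR adjusted p-values of 2.95e-07 and 2.08e-08. Between antibody-treated and injured mice it was 0.00025 (95% interval -0.13 to 0.13, edgeR adjusted p = 0.999), but with the GC and length trend removed C4b was called higher in antibody-treated mice at 0.17 (adjusted p = 0.0143). Astrocyte markers, summed, moved from 1379 to 1437 TPM in the uninjured to 1810 to 2018 in the injured and 1628 to 1704 in antibody-treated mice, with 2 of 7, 1 of 7 and 0 of 7 called higher in the 3 comparisons, and their part in the C4b values was not tested.

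Of the windows of 50 bases along the C4b transcript, 35.2% also occur in transcripts of its neighbour C4a, so the C4b values may hold reads of C4a. No gene of the name C4a was among those measured, so it was not analysed here. Of the C4b exon reads 100% were counted as unique. Intron reads, which come largely from unspliced RNA of the same libraries, gave C4b 29, 38, 40 and 33 reads in the uninjured, 89, 92, 92 and 128 in the injured, and 50, 70, 77 and 63 in the antibody-treated mice. By these reads C4b rose by 1.36 on the log2 scale after injury (SE 0.19, edgeR adjusted p = 8.38e-04) and by 1.11 in antibody-treated against uninjured mice (SE 0.20, adjusted p = 0.0173), while antibody-treated and injured mice differed by -0.25 (SE 0.17, adjusted p = 0.367). Of the 9 genes 4 had enough intron reads to test, and C1qb, C1qc and C2 passed in no comparison. The shares of all 11279 genes that rose by intron reads were 0.142%, 0.47% and 5.4% in the 3 comparisons. With the exon scaling factors, or without uninjured replicate 1 or replicate 4, the C4b intron call of antibody-treated against uninjured mice was lost.

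C2, the other substrate of the C1 proteases, was scarce. It lies on the minus strand of chromosome 17 at 34862604-34898265 with 24 exons and overlaps Gm20547 on the same strand and Zbtb12 on the opposite strand. C2 measured 1.61, 1.11, 1.74 and 1.21 CPM in the uninjured, 1.59, 3.30, 1.75 and 2.54 in the injured, and 2.62, 2.99, 2.35 and 2.48 in the antibody-treated mice. The injured libraries overlapped both other groups, and the antibody-treated libraries lay above the uninjured ones. The log2 fold change was 0.69 after injury (SE 0.24, edgeR adjusted p = 0.0533, not passed) and 0.88 in antibody-treated against uninjured mice (SE 0.24, adjusted p = 0.0376, passed). Between the injured groups it was 0.18 (95% interval -0.30 to 0.67, adjusted p = 0.594). Each library held 17 to 53 exon reads of C2, of which 25.6% in all were counted as unique, so C2 cannot be separated with certainty from the genes it overlaps. The call was lost with unique reads and on leaving out any of 6 libraries (uninjured or antibody-treated replicate 1, 2 or 4), with adjusted p of 0.0639 to 0.106 among the latter. After injury C2 passed at 0.77 with scaling by library size alone, and at 0.81, 0.80 and 0.69 without uninjured replicate 3, injured replicate 1 or antibody-treated replicate 4.

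C3, on which all routes of the cascade converge, rose after injury and again with the antibodies. It lies on the minus strand of chromosome 17 at 57203970-57228136 with 48 exons. C3 measured 10.9, 10.04, 11.3 and 8.92 CPM in the uninjured, 18.8, 20.4, 20.5 and 22.3 in the injured, and 37.9, 39.0, 40.3 and 37.0 in the antibody-treated mice. The groups formed 3 separate steps with no overlap. The log2 fold change was 0.99 after injury (SE 0.08, edgeR adjusted p = 1.92e-05), 1.90 in antibody-treated against uninjured mice (SE 0.08, adjusted p = 6.63e-09) and 0.91 in antibody-treated against injured mice (SE 0.08, adjusted p = 1.28e-05). Beside the last rise, fibroblast and meningeal markers were called higher in 5 of 6, muscle markers in 6 of 6, choroid plexus markers in 6 of 6, and monocyte and border macrophage markers in 3 of 6 tested of 8 listed. Neutrophil markers were called higher in 3 of 3 tested of 8 listed, bone markers in 3 of 5 tested, and microglia markers in 2 of 6. Astrocyte markers were called higher in 0 of 7, endothelial markers in 0 of 6, neuron markers in 2 of 6 and oligodendrocyte markers in 1 of 6. Among the neuron markers 2 were called lower, and among the oligodendrocyte markers 1. Over all tested genes 10.9% were called higher. The choroid plexus markers summed to 1848 to 2396 TPM in the uninjured, 1677 to 2208 in the injured and 2314 to 3502 in the antibody-treated libraries. The part of any of these cell types in the C3 values was not tested.
The 250 bases before the RefSeq start of C3 (GRCm38.p6, chr17:57228137-57228386, minus strand, 5′ to 3′) are shown because C3 had the largest fold change of the 9 genes in both comparisons of antibody-treated mice, with capitals marking the C/EBP core TTGCNNAA at -45 to -38.
C3: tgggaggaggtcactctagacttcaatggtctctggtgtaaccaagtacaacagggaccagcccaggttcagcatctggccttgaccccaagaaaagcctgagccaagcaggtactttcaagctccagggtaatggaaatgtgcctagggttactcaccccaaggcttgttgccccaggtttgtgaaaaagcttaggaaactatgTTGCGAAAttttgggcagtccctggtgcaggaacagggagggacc
The same core on either strand occurred in 10.8% of all windows, and no reading of factor binding follows from it.

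C3 and C4b did not move in proportion. The ratio of C3 to C4b in TPM was 0.272, 0.262, 0.287 and 0.243 in the uninjured, 0.217, 0.227, 0.223 and 0.228 in the injured, and 0.428, 0.434, 0.409 and 0.412 in the antibody-treated mice. The groups did not overlap, with injured lowest and antibody-treated highest. The log2 ratio differed by -0.25 between injured and uninjured mice, and was higher by 0.66 in antibody-treated than uninjured mice and higher by 0.91 in antibody-treated than injured mice. Each of the 3 differences had a two-sided exact permutation p = 0.0286 (0.0286 after Benjamini-Hochberg adjustment over the 3), the smallest that 4 against 4 mice can give.

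**Figure D3:**
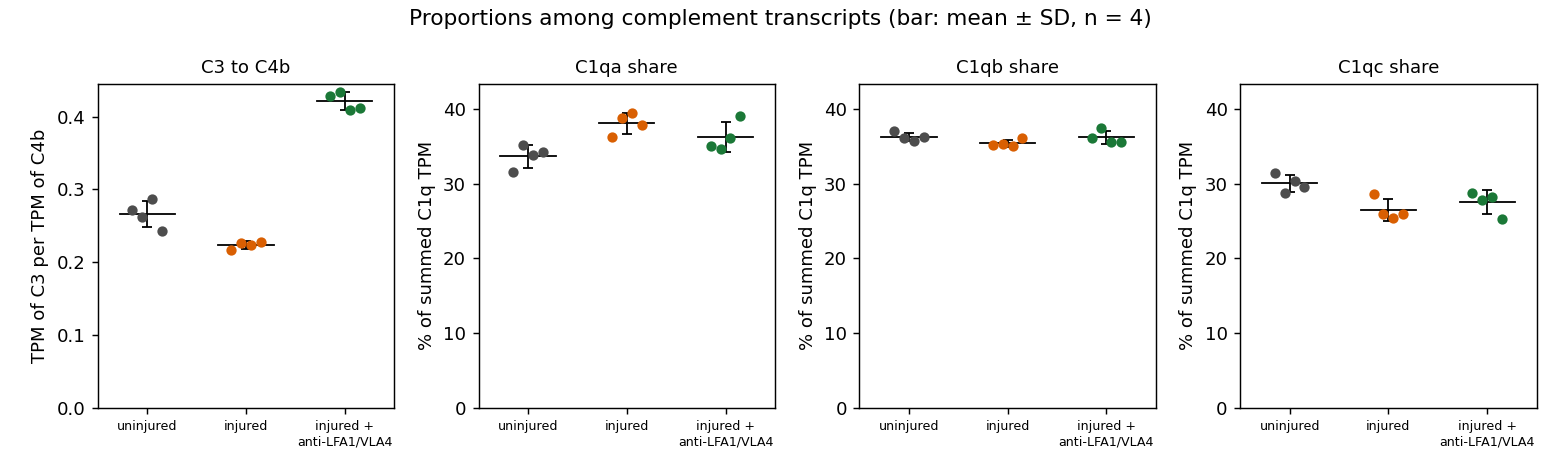
Ratio of C3 to C4b TPM (left) and share of each C1q transcript in the summed C1q TPM (%); each point is 1 mouse and bars are the mean ± SD of 4. The C3 to C4b ratio falls from 0.266 to 0.224 with injury and stands at 0.421 with the antibodies, while C1q shares move by a few percent of the sum.

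Serping1 encodes the C1 inhibitor, which blocks C1r and C1s, and followed the stepwise pattern of C3. It lies on the minus strand of chromosome 2 at 84765387-84775444 with 11 exons. Serping1 measured 8.13, 8.21, 9.93 and 7.78 CPM in the uninjured, 13.2, 16.1, 12.5 and 13.4 in the injured, and 20.7, 21.3, 20.1 and 23.4 in the antibody-treated mice. No library of one group reached into another. The log2 fold change was 0.69 after injury (SE 0.10, edgeR adjusted p = 0.00180), 1.33 in antibody-treated against uninjured mice (SE 0.10, adjusted p = 2.53e-06) and 0.63 in antibody-treated against injured mice (SE 0.10, adjusted p = 9.75e-04). Fibroblasts are known to make the C1 inhibitor, and the fibroblast and meningeal markers given above moved with this last rise. Their part was not tested.

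C3ar1, the receptor of C3a on microglia and other myeloid cells, was higher in antibody-treated mice than in both other groups. It lies on the minus strand of chromosome 6 at 122847138-122856161 with 2 exons. C3ar1 measured 3.29, 4.43, 4.23 and 4.09 CPM in the uninjured, 5.09, 4.61, 4.40 and 5.39 in the injured, and 7.44, 7.40, 8.06 and 8.03 in the antibody-treated mice. All antibody-treated libraries lay above the rest, and the injured and uninjured ranges overlapped between 4.40 and 4.43. The log2 fold change was 0.94 in antibody-treated against uninjured mice (SE 0.11, edgeR adjusted p = 1.14e-04) and 0.67 against injured mice (SE 0.11, adjusted p = 0.00127). After injury alone it was 0.28 (95% interval 0.03 to 0.52, adjusted p = 0.0895) and did not pass, although it passed at 0.36 with scaling by library size alone and at 0.49 with the GC and length trend removed. Monocyte and border macrophage markers summed to 5.37 to 6.45 TPM in the uninjured, 8.85 to 10.1 in the injured and 15.3 to 18.6 in antibody-treated mice. Neutrophil markers summed to 3.39 to 5.57, 6.14 to 8.24 and 34.2 to 56.9 TPM, with Ly6g at 0 in all groups, and the part of either list in the C3ar1 values was not tested.

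C5ar1, the receptor of C5a, stayed near the limit of these libraries. It lies on the minus strand of chromosome 7 at 16246743-16259540 with 6 exons, and each library held only 10 to 28 exon reads of it. C5ar1 measured 0.739, 1.04, 1.14 and 0.671 CPM in the uninjured, 0.764, 1.37, 0.723 and 1.01 in the injured, and 2.04, 1.71, 1.14 and 1.20 in the antibody-treated mice. The groups overlapped, with antibody-treated replicates 1 and 2 above all other libraries. The log2 fold change was 0.10 after injury (95% interval -0.52 to 0.73, edgeR adjusted p = 0.821), 0.75 in antibody-treated against uninjured mice (0.16 to 1.35, adjusted p = 0.103) and 0.65 in antibody-treated against injured mice (0.07 to 1.23, adjusted p = 0.0987). None passed at this depth. Without antibody-treated replicate 3, the comparison of antibody-treated with uninjured mice passed at 0.87.

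Per length, C1q transcripts were by far the most abundant of the 9 and C5ar1 the least in all 3 groups. In TPM the means in uninjured mice were 127 for C1qb, 118 for C1qa, 105 for C1qc, 18.0 for C4b, 10.1 for Serping1, 4.79 for C3, 2.23 for C3ar1, 1.16 for C2 and 0.832 for C5ar1. In injured mice they were 263 for C1qa, 244 for C1qb, 182 for C1qc, 47.9 for C4b, 18.3 for Serping1, 10.7 for C3, 3.04 for C3ar1, 2.09 for C2 and 1.0 for C5ar1. In antibody-treated mice they were 259 for C1qa, 257 for C1qb, 195 for C1qc, 43.1 for C4b, 25.6 for Serping1, 18.1 for C3, 4.33 for C3ar1, 2.14 for C2 and 1.42 for C5ar1. The order from C4b down was the same in every group. Ranges of neighbours overlapped for C1qa and C1qb in all groups, for C1qa and C1qc and for C2 and C5ar1 in uninjured mice, and for C3ar1 and C2 in injured mice.

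Complement levels were also taken per level of transcripts that mark resident microglia. The mean of these transcripts was nearly the same in all groups, while single markers moved in both directions after injury. The ratio was taken for all members, also those that other cells are known to make, and the part of microglia in the complement values was not tested. The geometric mean of Tmem119, P2ry12, Sall1, Gpr34, Siglech and Olfml3 was 16.2 ± 0.573 TPM (SD, n = 4) in the uninjured, 16.6 ± 0.448 in the injured and 17.0 ± 0.988 in the antibody-treated mice. Among these markers P2ry12 and Gpr34 fell after injury, by 0.77 and 0.48 on the log2 scale (edgeR adjusted p = 0.00182 and 0.0107), and Olfml3 rose by 0.31 (adjusted p = 0.0253). In antibody-treated against injured mice P2ry12 and Gpr34 rose by 0.55 and 0.57 (adjusted p = 0.00592 and 0.00320), and Olfml3 rose by 0.44 in antibody-treated against uninjured mice (adjusted p = 0.00675). C1qa per marker level rose from 7.30 ± 1.20 in uninjured to 15.8 ± 2.26 in the injured and 15.4 ± 3.68 in the antibody-treated mice. Injured libraries lay wholly above uninjured ones for 7 of the 9 genes, all but C2 and C5ar1, where 25.6% of 14680 genes did so. Antibody-treated libraries lay wholly above uninjured ones for 8 genes, all but C5ar1, against 5.99% of genes, and above injured ones for C3, Serping1 and C3ar1, against 3.88%. Each of these differences had an exact permutation p = 0.0286 (0.0429 after adjustment over the 27 ratios). That is the smallest value 4 against 4 mice can give, and groups without overlap always reach it, so it adds nothing to the separation. For C3 the ratio was 0.296 ± 0.0285, 0.645 ± 0.0852 and 1.06 ± 0.0446 in uninjured, injured and antibody-treated mice.

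The rest of the complement system was covered by a list of 50 further genes, of which 48 were in the tables and 25 were tested. Of the 25, 6 rose after injury, 8 rose in antibody-treated against uninjured mice and 7 rose in antibody-treated against injured mice, beside 0, 0 and 1 that fell. The median log2 fold change of the 25 was 0.04, 0.23 and 0.15. Over all tested genes 11.9%, 6.3% and 10.9% rose. The 23 that were not tested had under 100 reads over the 12 libraries, 5 of them none.

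Of the initiators 4 of 13 were tested, and the C1 proteases were those that passed. C1s1, which encodes C1s, measured 1.87 ± 0.308 CPM (SD, n = 4) in the uninjured, 2.69 ± 0.477 in the injured and 6.38 ± 0.469 in the antibody-treated mice. It rose by 1.24 on the log2 scale in antibody-treated against injured mice (SE 0.14, edgeR adjusted p = 1.14e-04), by 1.77 against uninjured mice (adjusted p = 6.81e-06) and by 0.53 after injury (adjusted p = 0.0360). C1ra, which encodes C1r, measured 4.33 ± 0.484, 6.48 ± 0.668 and 6.78 ± 0.427 CPM and rose by 0.58 after injury (edgeR adjusted p = 0.00561) and by 0.65 in antibody-treated against uninjured mice (adjusted p = 0.00259). Only 66.0% of C1ra reads and 92.8% of C1s1 reads were counted as unique, so their values are less certain. Colec11, a lectin that starts the cascade on sugars, had a log2 fold change of -0.32 in antibody-treated against injured mice (adjusted p = 0.538). The rise of C1s1 after injury was lost in 11 of 23 alternatives (adjusted p up to 0.125), including the Wald test of DESeq2 and leaving out injured or uninjured replicate 2, 3 or 4 or antibody-treated replicate 2.

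Of the alternative pathway both tested genes rose in antibody-treated against uninjured mice. Cfb, the protease of the alternative convertase, measured 0.234 ± 0.117 CPM in the uninjured, 0.461 ± 0.299 in the injured and 1.18 ± 0.399 in the antibody-treated mice, a log2 fold change of 2.30 against uninjured (SE 0.48, edgeR adjusted p = 0.00915) and 1.34 against injured mice (SE 0.42, adjusted p = 0.0357). Its reads were shared with Gm20547, with 8.26% unique of 109 reads over the 12 libraries, so its values are uncertain. The second call was lost in 8 of the 21 alternatives that tested Cfb (adjusted p up to 0.0921). Among them were leaving out antibody-treated replicate 1, 2 or 3, injured replicate 1 or 4, or uninjured replicate 2 or 4. In the rest of the 23 alternatives Cfb was not tested. Cfp encodes properdin, which stabilises that convertase, and measured 4.98 ± 0.927, 6.83 ± 0.398 and 9.82 ± 3.07 CPM, with 14.1 in antibody-treated replicate 4. It rose by 0.97 against uninjured mice (SE 0.19, edgeR adjusted p = 0.00657), while 0.46 after injury and 0.52 between the injured groups did not pass (adjusted p = 0.105 and 0.0623). Of the terminal components 2 of 7 were tested, and neither passed in any comparison. C7, a part of the membrane attack complex, had log2 fold changes of -0.28, 0.04 and 0.32 in the 3 comparisons, and C8g had 0.08, 0.47 and 0.39.

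Among soluble regulators 3 of 10 were tested. Clu, which encodes clusterin, an inhibitor of the terminal complex, measured 899 ± 84.0, 1149 ± 45.6 and 1181 ± 165 CPM and rose by 0.35 after injury (edgeR adjusted p = 0.0201) and by 0.39 in antibody-treated against uninjured mice (adjusted p = 0.0186). Vtn, vitronectin, rose by 0.35 after injury (adjusted p = 0.0294). With the GC and length trend removed the rises of Clu and Vtn after injury were no longer called, at 0.12 and 0.07. Both rises after injury were also lost without injured replicate 2, 3 or 4 or uninjured replicate 1, and that of Vtn without uninjured replicate 2 or 4, with a replicate block and without both ends of the first principal component, with adjusted p over the alternatives up to 0.133 for Clu and 0.328 for Vtn. The rise of Clu in antibody-treated against uninjured mice was lost without uninjured replicate 1, without both ends of the first principal component and with only the 2 groups compared (adjusted p over the alternatives up to 0.0894).

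Of the 10 membrane regulators 9 were tested, and 2 of them rose in antibody-treated against injured mice. Cd59a, which blocks assembly of the membrane attack complex, measured 8.90 ± 1.74, 7.08 ± 0.781 and 12.6 ± 1.72 CPM and rose by 0.83 in that comparison (SE 0.14, edgeR adjusted p = 0.00173). Its rise of 0.50 against uninjured mice (adjusted p = 0.0381) was lost in 10 of 23 alternatives, among them leaving out uninjured or antibody-treated replicate 1, 2 or 4 or injured replicate 3 (adjusted p up to 0.234). Only 86.7% of Cd59a reads were counted as unique, so its values are less certain. Cd55, which speeds the decay of convertases, measured 6.26 ± 0.485, 4.57 ± 1.25 and 7.34 ± 0.703 CPM and rose by 0.68 (SE 0.17, adjusted p = 0.0138). Csmd2, a membrane protein with complement control repeats, fell by 0.53 in that comparison (adjusted p = 0.0258), and this was the only other complement gene called lower in any of the 3 comparisons. It is named here because the count was 1, not by the rule for named genes, and the call was lost with a replicate block and without antibody-treated replicate 1 or 2 or injured replicate 1 or 4 (adjusted p up to 0.0898). Cd46 and Csmd1 had log2 fold changes of -0.43 after injury and -0.51 in antibody-treated against uninjured mice, neither of which passed (edgeR adjusted p = 0.0544 and 0.134).

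Among the other receptors 5 of 7 were tested. Itgax, a chain of complement receptor 4, measured 1.62 ± 0.235 CPM in the uninjured, 5.69 ± 0.562 in the injured and 5.24 ± 0.604 in the antibody-treated mice. It rose by 1.81 after injury (SE 0.14, edgeR adjusted p = 9.01e-06) and by 1.69 in antibody-treated against uninjured mice (adjusted p = 6.81e-06), with -0.12 between the injured groups (95% interval -0.38 to 0.14, adjusted p = 0.521). Itgb2, the chain that Itgax pairs with and also a chain of LFA1, the target of 1 of the antibodies, measured 6.65 ± 0.140, 9.88 ± 1.66 and 12.6 ± 0.824 CPM. It rose by 0.57, 0.92 and 0.35 in the 3 comparisons (edgeR adjusted p = 0.00603, 1.50e-04 and 0.0352). Cd93, expressed on endothelium and myeloid cells, rose by 0.35 in antibody-treated against injured mice (adjusted p = 0.0406). The rises of Cd93 and Itgb2 between the injured groups were lost in 12 and 10 of 23 alternatives (adjusted p up to 0.0971 and 0.0987). For both these included leaving out antibody-treated replicate 1 or 2, injured replicate 2 or 3, or uninjured replicate 2 or 4, for Cd93 also antibody-treated replicate 3 or injured replicate 4, and for Itgb2 injured replicate 1.

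**Figure D4:**
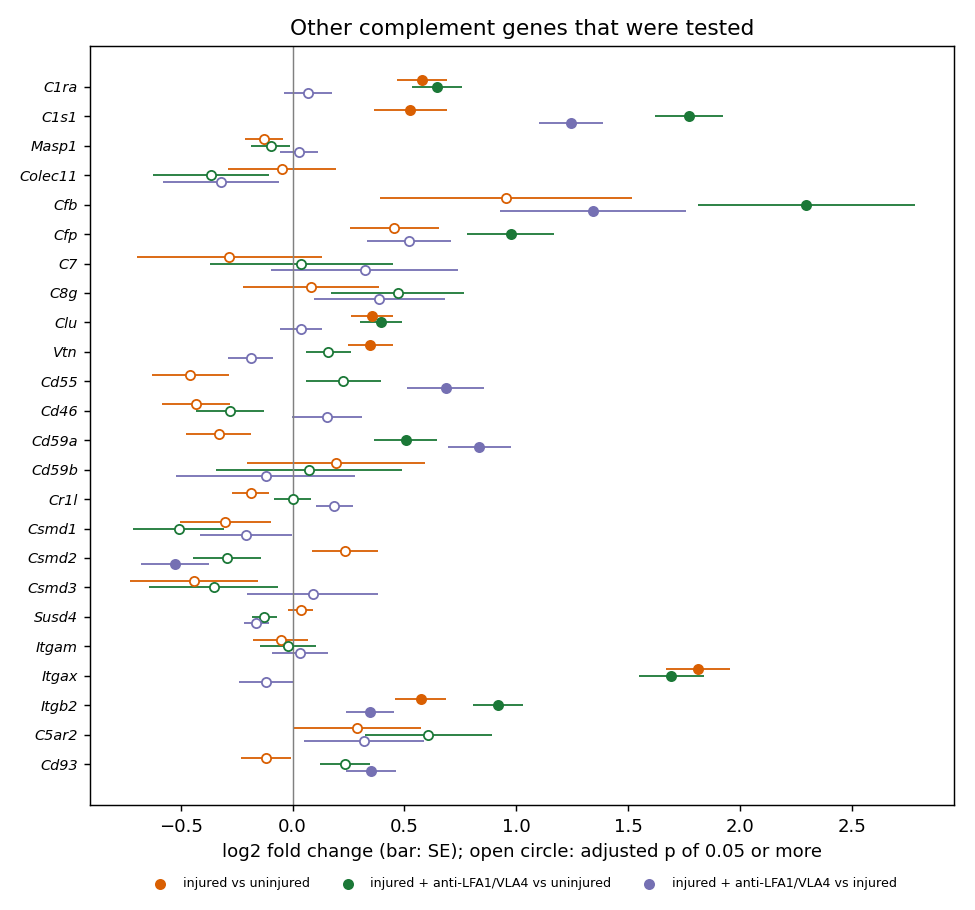
Log2 fold change with its standard error for 24 other complement genes that were tested, in the 3 comparisons; filled circles passed an adjusted p of 0.05. Itgax stands near 1.8 and 1.7 against uninjured mice and near 0 between the injured groups, while C1s1, Cfb, Cd55 and Cd59a are among those with filled circles between the injured groups.

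The genes whose levels over the 12 libraries were most like those of the complement genes are given as a description, from 13437 genes compared. These were tested genes of at least 1 CPM on average. The 9 members, the other complement genes of the lists, and genes with a clone, predicted or pseudogene name were left out of the comparison. The mean of the C1q genes was most like Trem2, a microglial receptor for lipids and debris (Pearson r = 0.995), H2-D1, an MHC class I chain (0.991), and Ctsd, a lysosomal protease (0.991). C3 was most like Gpnmb, a transmembrane glycoprotein of phagocytes (0.992), Ly9 (0.984) and Chil1 (0.981). C4b was most like Gfap, the filament protein of astrocytes (0.985), Col6a2 (0.975) and Mmp14 (0.974). C3ar1 was most like Irf9, a mediator of interferon signalling (0.978), Col1a2 (0.967) and Igf2 (0.962). The libraries share the group structure of the study, so these values rest in part on the differences between groups.

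**Figure D5:**
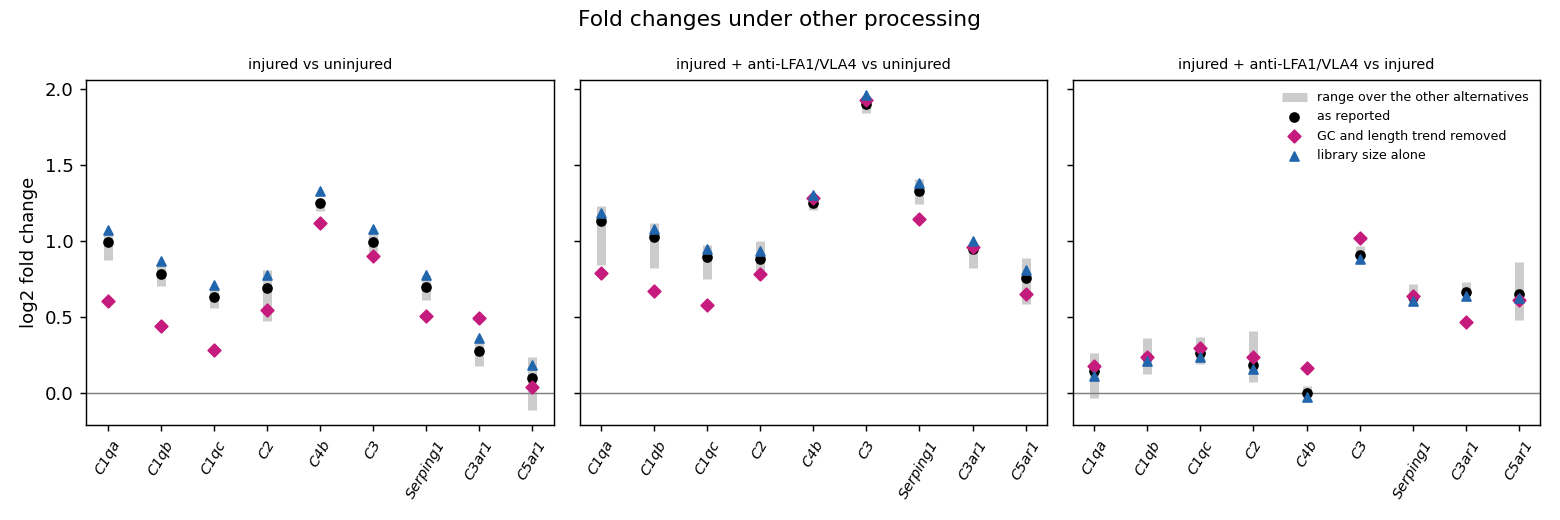
Log2 fold change of the 9 complement genes as reported (black), with the GC and length trend removed (pink diamonds), with scaling by library size alone (blue triangles) and the range over the other alternatives (grey bars), 1 panel a comparison. The C1q genes after injury move from 0.99, 0.79 and 0.63 to 0.61, 0.44 and 0.28 with the trend removed, and C3 stays between 0.88 and 1.02 for antibody-treated against injured mice.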

How the data were processed

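Total RNA from 12 mouse brain samples (500 ng a library, a stranded kit) was sequenced, and per the submitters' processing notes CASAVA 1.8.2, FastQC 0.11.8, Trimmomatic 0.39 and the build GRCm38 were used. Which aligner and counting program were used, and whether strand was considered, is not given in the sources used here. Whole-number counts of total and unique exon, intron and junction reads per gene were deposited, per the file headers. The authors also deposited TPM, used for levels between genes and for ratios.

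The tests used total exon reads, filterByExpr by group, TMM scaling and 1 edgeR 4.0.16 quasi-likelihood model (R 4.3.3) over all 12 libraries with group as its only term. Tests were two-sided with Benjamini-Hochberg adjustment at 0.05 over 14771 genes. Ratios were compared by exact permutation over mice (scipy 1.17.1). The alternatives were limma voom (3.58.1), DESeq2 1.42.0 with its Wald test, its size factors, scaling by library size alone, a filter of 1 CPM in 4 libraries or none, only the 2 groups compared, a replicate block, unique reads, a GC and length trend removed with mgcv 1.9.3, and each library left out. Leaving out both ends of the first principal component was added after seeing the data. The code was tested on simulated counts.

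The members and lists were chosen with earlier results of these data known. All 9 members are named, and of the other complement genes those called with a fold of at least 2 and the 2 of smallest p in each of 6 role lists. 1 tested gene of the lists, included in the counts, is not reported here. Likeness took the 3 highest correlations.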

Additional observations from a re-analysis of the deposited data

Results flagged for a closer look

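In antibody-treated replicate 3 the level of C4b, 103.8 CPM, stood apart from the other antibody-treated libraries, which measured 93.3, 94.6 and 94.6 CPM. The gap to the nearest of them was 0.874 of the range of the group, above Dixon's 95% critical value for 4 samples. Of 27 sets of 4 libraries examined this was the only one, and chance alone flags about 1 in 20. The highest injured library measured 103 CPM.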

How the results depend on the processing

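Of the member fold changes that passed, those of C1qa, C1qb, C1qc, C3, C4b and Serping1 against uninjured mice, of C3ar1 in antibody-treated against uninjured mice, and of C3, Serping1 and C3ar1 between the injured groups passed in all 23 alternatives. The count of members higher in antibody-treated than injured mice was 3. It was 7 after removal of the trend on GC content and length, where C1qa (0.18), C1qb (0.23), C1qc (0.30) and C4b (0.17) were also called. Leaving out 1 library gave 3 to 5, with 5 without antibody-treated replicate 3. The other complement genes higher after injury numbered 6 and, with 1 library left out, 3 to 7, with 3 without injured replicate 2, 3 or 4. Between the injured groups they numbered 7, against 4 with only the 2 groups compared and 4 to 7 with 1 library left out (4 without uninjured replicate 2 or 4 or antibody-treated replicate 1 or 2). By intron reads 1 member was higher in antibody-treated than uninjured mice, 0 with exon TMM scaling and 0 to 1 with 1 library left out. Changes of sign were seen where the values lay near 0. For antibody-treated against injured mice C1qa was -0.031 without both ends of the first principal component and -0.029 to 0.26 with 1 library left out. C4b was -0.028 with library size alone, -0.0044 with only the 2 groups compared, -0.00043 with a replicate block and -0.021 to 0.045 with 1 library left out. C5ar1 after injury was -0.11 to 0.23 with 1 library left out. Samples with the same replicate number deviated together in some pairs only (correlations -0.53 to 0.43). Pairs with different numbers were not set beside them, so whether such samples share more than a number was not tested. With a replicate block the members higher numbered 6, 7 and 3, as C2 in antibody-treated against uninjured mice was no longer called (0.87, edgeR adjusted p = 0.0802). Without both ends of the first principal component they numbered 6, 7 and 3 as well, and C2 again lost its call (adjusted p = 0.0889). The cause of these changes was not tested.

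Over all genes, 1764 rose and 1632 fell after injury, with 685 to 3157 and 580 to 2511 over the alternatives. The counts were 931 and 476 (517 to 2054 and 201 to 2007) for antibody-treated against uninjured and 1612 and 1581 (1053 to 2062 and 837 to 2014) against injured mice. The share of calls that were higher after injury was 51.9%, against 76.0% with library size alone, 37.2% with the trend removed and 42.7% with no filter. For antibody-treated against uninjured mice it was 66.2%, against 86.3% and 36.4% with the first and second of these and 54.0% with the Wald test of DESeq2. With library size alone the median log2 fold change over all genes after injury was 0.11, against 0.03. Leaving a library out of the permutation tests leaves 4 against 3, which cannot reach 0.05, so those ratios were compared as values. C5ar1 and C2 had the fewest reads of the members, 10 to 28 and 17 to 53 a library.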
